A study of Homo sapiens with 9 samples.

Results

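The genes described here are 10 members of the SMAD, BMP and ID families, chosen by their symbol in the deposited table of 31558 genes: the receptor-regulated SMAD2 and SMAD3, the common mediator SMAD4, the inhibitory SMAD6 and SMAD7, the ligands BMP4 and BMP7, and the transcriptional inhibitors ID1, ID2 and ID3. All 10 were found once and were counted in all 9 samples. The samples are polyA RNA from HCT116, a human colorectal carcinoma cell line, in 3 groups of 3 replicates. CRLM1-OE cells overexpressed the long non-coding RNA CRLM1, Ctrl cells carried the empty plasmid and Anti cells carried a plasmid with the antisense sequence of CRLM1. The series describes a line with stable overexpression and control lines prepared in parallel, while the study's text calls these cells transfected, and its methods give a lentiviral vector with puromycin selection for stable lines. The replicates are called biological, but the sources used here do not say whether they were separate cultures. If they were not, p values measure the spread between preparations of one line. If they were, but each group was a single line, p values still measure spread within lines. A difference between lines then cannot be told apart from an effect of CRLM1.

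Ligands of the TGF-beta superfamily, to which the BMPs belong, bind paired type I and type II receptor kinases at the cell surface. Type I receptors for TGF-beta and activin phosphorylate SMAD2 and SMAD3, and those for BMPs phosphorylate SMAD1, SMAD5 and SMAD9. Phosphorylated SMADs join SMAD4 and bind DNA in the nucleus. SMAD7 blocks both branches and SMAD6 mainly the BMP branch, and both are themselves induced by the pathway. ID1, ID2 and ID3 are classical BMP target genes, whose proteins capture E proteins and keep them from DNA. In the colon, BMP signals restrain stem cell renewal in the crypt, and SMAD4 and the receptor gene TGFBR2 are recurrently mutated in colorectal cancer. HCT116 is known for mismatch repair deficiency and for a frameshift in TGFBR2. These are transcript levels, which do not show protein, phosphorylation or pathway activity.

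Total counts per sample ranged from 33302292 to 44514692. At these depths 3 counts correspond to 0.0674 to 0.0901 CPM (counts scaled to the library total), a floor that covers counting error only. The gene levels in CPM given below are also scaled with TMM factors. CRLM1, listed as RP4-710M16.2, had 32751 to 38704 counts in CRLM1-OE, 0 in each Ctrl sample and 1540 to 1951 in Anti, where the strand of the reads is not recorded. Of 8 colorectal epithelial markers, 7 (EPCAM, KRT8, KRT18, KRT19, CDH1, CDX2 and CLDN7) had at least 456 counts in every sample, whereas VIL1 had at most 10. KRT18 was at 936 CPM in CRLM1-OE and at 1870 and 1880 CPM in Ctrl and Anti. Of the fibroblast markers, COL1A1 had 305 to 652 counts, with 16.2 CPM in CRLM1-OE and 9.56 and 9.98 CPM in Ctrl and Anti, while COL1A2, COL3A1 and DCN had at most 3 counts in any sample. PDGFRB, also a fibroblast marker, had at most 12. Among blood cell markers, PTPRC had at most 2 counts, while CD68, a lysosomal protein gene, had 107 to 167, with means of 3.88, 3.60 and 2.97 CPM in the 3 groups. Among endothelial markers, PECAM1 had at most 6 counts, CDH5 at most 3 and KDR at most 9, while VWF had 13 to 35 counts in CRLM1-OE and 7 to 17 in the controls. The part of these levels in the results was not tested.

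The members lie on 6 chromosomes (GENCODE version 44, GRCh38). SMAD2, SMAD4 and SMAD7 share the long arm of chromosome 18, with SMAD2 at chr18:47808957-47931146 and SMAD7 at chr18:48919853-48950965, both on the reverse strand, and SMAD4 at chr18:51028528-51085045 on the forward strand. SMAD6 (chr15:66702236-66782849) and SMAD3 (chr15:67063763-67195173) are neighbours on the forward strand of chromosome 15. BMP4 lies at chr14:53949736-53958761 and BMP7 at chr20:57168753-57266641, both on the reverse strand. ID1 (chr20:31605283-31606515, forward), ID2 (chr2:8678845-8684461, forward) and ID3 (chr1:23557926-23559501, reverse) are short genes of 2 or 3 exons in their canonical transcripts. SMAD4 overlaps another annotated protein-coding gene on its own strand, ENSG00000267699, listed as RP11-729L2.2 with 330 to 599 counts per sample, so the split of reads between them is uncertain. RP11-729L2.2 had 9.87 ± 0.469 CPM in CRLM1-OE and 13.9 ± 0.195 CPM in Ctrl (SD, n = 3 per group). ID2 has an antisense partner, ID2-AS1, with 5 to 20 counts. The other overlapping genes averaged at most 1.1 counts or were not listed.

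The promoters of SMAD6, BMP4, ID1 and ID3 are shown because SMAD complexes bind at target promoters. These members represent an inhibitory SMAD, the ligand that moved most, and an ID pair of which one fell more than the other. SMAD6 passed against neither control, while SMAD7, the other inhibitory SMAD, rose against Ctrl and is not shown. Each is the 250 bases before a RefSeq transcript start (GRCh38.p14), 5′ to 3′ on the gene's strand. For BMP4, which has 3 RefSeq starts in the table, the most upstream one is shown. Capitals mark every match on either strand to 1 of 3 motifs: GTCTAGAC, the palindromic SMAD-binding element, GGCGCC, a GC-rich site of BMP-activated SMADs, and GTCTG or its complement CAGAC, the SMAD box.
SMAD6, chr15:66701986-66702235, forward strand: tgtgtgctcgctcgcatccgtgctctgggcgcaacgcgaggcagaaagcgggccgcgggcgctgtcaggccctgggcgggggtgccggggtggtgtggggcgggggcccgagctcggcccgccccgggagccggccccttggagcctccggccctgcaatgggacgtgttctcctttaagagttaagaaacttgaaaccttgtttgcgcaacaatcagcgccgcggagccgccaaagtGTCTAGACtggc
BMP4, chr14:53955051-53955300, reverse strand: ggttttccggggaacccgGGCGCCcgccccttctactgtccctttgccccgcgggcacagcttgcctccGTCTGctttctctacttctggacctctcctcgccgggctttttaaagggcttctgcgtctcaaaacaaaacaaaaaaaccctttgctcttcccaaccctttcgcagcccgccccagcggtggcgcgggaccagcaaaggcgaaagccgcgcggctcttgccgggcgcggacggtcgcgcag
ID1, chr20:31605039-31605288, forward strand: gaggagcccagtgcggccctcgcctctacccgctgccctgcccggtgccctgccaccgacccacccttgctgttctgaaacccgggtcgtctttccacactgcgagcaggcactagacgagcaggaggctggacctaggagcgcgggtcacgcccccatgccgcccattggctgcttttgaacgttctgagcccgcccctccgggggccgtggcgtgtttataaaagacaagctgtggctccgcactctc
ID3, chr1:23559502-23559751, reverse strand: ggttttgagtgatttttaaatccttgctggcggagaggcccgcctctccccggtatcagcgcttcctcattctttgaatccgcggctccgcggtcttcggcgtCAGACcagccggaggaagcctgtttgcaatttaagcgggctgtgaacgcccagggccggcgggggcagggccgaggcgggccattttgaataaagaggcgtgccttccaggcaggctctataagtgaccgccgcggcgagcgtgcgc

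The palindrome stands in the SMAD6 promoter at position -12, counted back from the transcript start, and in no other of the 18 windows of 9 members. Of all 35116 promoter windows of this length, 64 (0.182%) hold it. GGCGCC was found in 5 of the 18 windows, in BMP4 (position -232), SMAD2, SMAD3 and SMAD4, against 16.4% of all windows. These 5 windows had GC contents from 63.6% to 84.4%, all above the median of all windows, and the 2 SMAD2 windows overlap. The shares were not tested. The SMAD box was found in 7 of the 18 windows, in BMP4 (position -181 in the window shown), ID3 (position -147), SMAD3 and SMAD7, against 38.0% of all windows. The ID1 window holds none of the 3 motifs, and sequence farther upstream was not searched. GC content was 68.0% in the SMAD6 window, 63.6% in BMP4, 66.0% in ID1 and 62.0% in ID3, with a median of 58.0% over all windows. A match is a run of letters and shows no binding. BMP7 had no entry in the promoter table.

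On the FPKM scale, which divides by exon length and so allows levels of different genes to be set side by side, ID1 was the most abundant member (mean of the 9 samples 130 FPKM, from 120.19 to 143.05) and SMAD6 the least (0.918 FPKM, from 0.81 to 1.16). ID3 came next to ID1 (93.7 FPKM), followed by SMAD3 (30.7), BMP4 (9.38), ID2 (7.35), SMAD4 (5.28), BMP7 (4.31), SMAD7 (3.30) and SMAD2 (2.58). The ranges of the 9 samples overlapped between the neighbours BMP4 and ID2, SMAD4 and BMP7, BMP7 and SMAD7, and SMAD7 and SMAD2. Within samples, BMP7 was above SMAD7 in all 9. SMAD7 was above SMAD2 in every CRLM1-OE and Anti sample and below it in every Ctrl sample. The order of BMP4 and ID2 turned in Anti replicate 1, and that of SMAD4 and BMP7 in CRLM1-OE replicate 3. The ranges of the other neighbours stood apart. ID1 and ID3 exceeded 98.8% and 98.3% of the listed genes. SMAD2 ranked low on this scale although it had 3133 to 4967 counts per sample, because FPKM divides its counts by a long exon length. The ratio of the deposited counts and FPKM, taken with the total counts, gives 39.6 to 40.8 kb. Such lengths are approximate and likely too long: for ID1 the ratio gives 1.38 to 1.42 kb, while that gene spans 1233 bp. The canonical SMAD2 transcript in GENCODE version 44 has 34626 nt, mostly untranslated. The receptor-regulated pair therefore differed far more in FPKM than in counts.

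**Figure D1:**
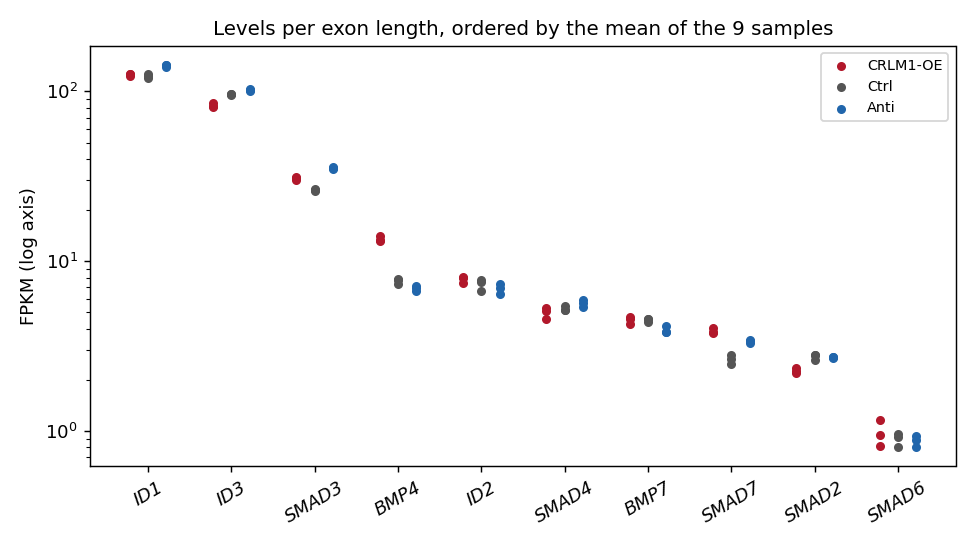
Deposited FPKM (log axis) of the 10 members, ordered by the mean of all 9 samples, with 1 point per sample in each group. ID1 lies above 120 FPKM in every sample and SMAD6 at 0.81 to 1.16 FPKM, and SMAD7 and SMAD2 overlap.

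Overexpression of CRLM1 was compared first with the empty plasmid. BMP4 rose most of the 10 members, by 62.6%, and SMAD7 by 35.6%, while SMAD2 fell by 23.9% and ID3 by 20.4%. SMAD3 rose slightly, SMAD4 and ID1 fell slightly under TMM scaling (SMAD4 did not pass and ID1 turned to 0.05 on the log2 scale with total counts), and SMAD6, BMP7 and ID2 did not pass the test. Thus 3 members were higher and 4 lower at an adjusted p of at most 0.05 (edgeR's quasi-likelihood test), where 15% of all 29846 genes tested were higher and 16.8% lower. With total counts 3 were higher and 2 lower. All members have mean counts of at least 153.1, and among the 12941 genes averaging 50 counts or more, 65.3% passed in either direction, so 7 of 10 is close to the background of genes counted this often. No member changed 2-fold or more, the limit of the study, which 3.41% of the genes tested passed. The median log2 fold change was -0.058 over the members and 0.017 over all genes tested. In bulk RNA, fewer cells expressing a gene and less RNA per cell cannot be told apart.

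Against Anti, which shares the CRLM1-OE samples with the first comparison, BMP4 rose by 88.8% and BMP7 by 10.6%, and SMAD2, SMAD3, SMAD4, ID1 and ID3 fell by 14% to 20.9%. These 2 higher and 5 lower members stand beside 17.1% higher and 18.5% lower of 30183 genes tested, and beside 72.2% passing in either direction among those 12941 genes. With total counts 4 were higher and 5 lower. None changed 2-fold or more, against 5.65% of all genes tested. The median was -0.05 over the members and -0.023 over all genes. SMAD6, SMAD7 and ID2 did not pass.

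**Figure D2:**
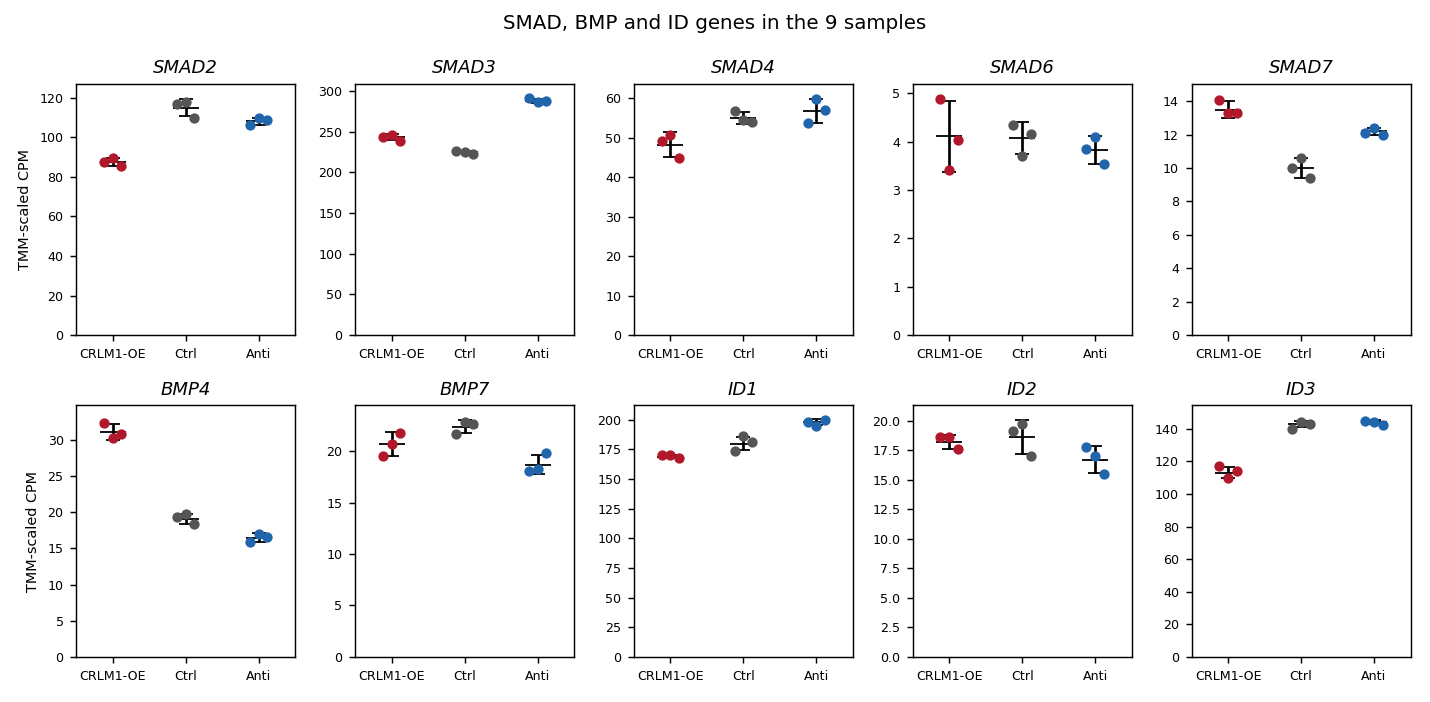
Level of each member in CPM after TMM scaling, each panel with its own axis from 0, with 1 point per sample and a bar at the mean of each group (n = 3). BMP4 lies at 30.2 to 32.3 CPM in CRLM1-OE, above all 6 control samples, and SMAD2 and ID3 lie below all 6, while the SMAD6 samples overlap.

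SMAD2, which carries TGF-beta and activin signals, had 87.5, 89.4 and 85.7 CPM in the CRLM1-OE samples, 117, 118 and 110 CPM in Ctrl, and 106, 110 and 109 CPM in Anti. These values, like the other gene levels in CPM, are TMM-scaled. The 3 CRLM1-OE samples were the lowest of the 9. Its log2 fold change was -0.39 (SE 0.031, adjusted p = 7e-35) against Ctrl and -0.31 (SE 0.029, adjusted p = 1.4e-24) against Anti. SMAD3, its partner in the same branch, had 243, 246 and 239 CPM in CRLM1-OE, 226, 225 and 223 CPM in Ctrl, and 291, 286 and 288 CPM in Anti. The 3 groups did not overlap, and CRLM1-OE lay between the controls, so the sign depends on the control. SMAD3 was higher than in Ctrl by 0.11 on the log2 scale (SE 0.025, adjusted p = 4.1e-05) and fell by 0.25 on the same scale against Anti (SE 0.022, adjusted p = 1.5e-28).

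SMAD4, the common partner of the receptor-regulated SMADs, had 49.3, 50.8 and 44.8 CPM in CRLM1-OE, 56.8, 54.4 and 54.1 CPM in Ctrl, and 53.8, 59.9 and 57.1 CPM in Anti. All CRLM1-OE samples were below all control samples, and the controls overlapped each other. Its log2 fold change was -0.19 against Ctrl (SE 0.04, adjusted p = 8.6e-06) and -0.23 against Anti (SE 0.038, adjusted p = 4.6e-09). With libraries scaled by total counts, without TMM factors, SMAD4 no longer passed against Ctrl (-0.05, adjusted p = 0.415), and with limma on log2(FPKM + 0.1) it passed against neither control (adjusted p = 0.462 and 0.0698). RP11-729L2.2, with which it overlaps, was also lower in CRLM1-OE, and its part in the SMAD4 counts was not tested.

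The inhibitory SMADs differed from each other. SMAD7, which binds type I receptors and recruits SMURF ubiquitin ligases to them, had 14.1, 13.3 and 13.3 CPM in CRLM1-OE, 9.99, 10.6 and 9.41 CPM in Ctrl, and 12.1, 12.4 and 12 CPM in Anti. The groups did not overlap, with Anti between the other two. SMAD7 rose against Ctrl (log2 fold change 0.44, SE 0.077, adjusted p = 7.3e-08). Against Anti its log2 fold change was 0.16 with a 95% interval from 0.0187 to 0.302 (adjusted p = 0.071). That value lies near the limit: it passed with total counts (adjusted p = 0.0077) and when low-count genes were removed with filterByExpr (adjusted p = 0.0283). It also passed with at least 10 counts in every sample (adjusted p = 0.0225) and with limma on log2(FPKM + 0.1) and log2(FPKM + 1) (adjusted p = 0.0111 and 0.0134). With any single replicate left out it did not pass (adjusted p from 0.0556 to 0.284).

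SMAD6, which competes with SMAD4 for the BMP-activated SMADs, was the member with the fewest reads, 120 to 214 per sample. It had 4.88, 3.42 and 4.04 CPM in CRLM1-OE, 4.35, 3.7 and 4.17 CPM in Ctrl, and 3.85, 4.1 and 3.53 CPM in Anti, and the highest and the lowest of the 9 values were both CRLM1-OE samples. The log2 difference was 0.02 against Ctrl (95% interval -0.223 to 0.266, adjusted p = 0.93) and 0.12 against Anti (-0.128 to 0.36, adjusted p = 0.54). The data leave differences of any size inside these intervals possible. On leaving out CRLM1-OE replicate 1 the sign turned against both controls.

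BMP4, a secreted ligand of the BMP receptors, had 32.3, 30.2 and 30.8 CPM in CRLM1-OE, 19.3, 19.7 and 18.4 CPM in Ctrl, and 15.9, 17 and 16.6 CPM in Anti. No group overlapped another. The log2 fold change was 0.70 against Ctrl (SE 0.055, adjusted p = 3.2e-36) and 0.92 against Anti (SE 0.055, adjusted p = 6.8e-60). Among the 12941 genes averaging 50 counts or more, 8.31% had a larger change in size against Ctrl and 6.8% against Anti. The genes whose level was most like that of BMP4 across the 9 samples, among 11701 genes averaging 100 counts or more, were TIMP2, an inhibitor of matrix metalloproteinases, CLSTN3, a neuronal cadherin family member, and DUSP1, a MAP kinase phosphatase. Their root mean square differences from BMP4 in centred log2 CPM were 0.032, 0.0354 and 0.0395. BMP4 was chosen for this search after its values were seen.

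BMP7, the second ligand, moved little. It had 19.5, 20.7 and 21.8 CPM in CRLM1-OE, 21.7, 22.9 and 22.7 CPM in Ctrl, and 18.1, 18.3 and 19.8 CPM in Anti. CRLM1-OE lay between the controls and overlapped both. The log2 difference against Ctrl was -0.12 (95% interval -0.231 to -0.00249, adjusted p = 0.13). Against Anti it rose by 0.15 on the log2 scale (SE 0.06, adjusted p = 0.044), a call lost with DESeq2 (adjusted p = 0.0821), with all 9 samples in one fit (adjusted p = 0.0516) and on leaving out CRLM1-OE replicate 2 or 3 or Anti replicate 1 or 2 (adjusted p = 0.0977, 0.19, 0.192 and 0.104).

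Of the ID genes, ID3 fell most. ID3 had 117, 110 and 114 CPM in CRLM1-OE, 140, 144 and 143 CPM in Ctrl, and 145, 144 and 142 CPM in Anti, so that CRLM1-OE was apart from both controls and the controls overlapped. Its log2 fold change was -0.33 against Ctrl (SE 0.029, adjusted p = 4.4e-28) and -0.34 against Anti (SE 0.027, adjusted p = 1.6e-35). ID1 had 170, 170 and 168 CPM in CRLM1-OE, 174, 186 and 181 CPM in Ctrl, and 198, 195 and 200 CPM in Anti. The groups did not overlap, but the gap to Ctrl was small, at -0.09 on the log2 scale (SE 0.027, adjusted p = 0.0042), and larger to Anti, at -0.22 (SE 0.024, adjusted p = 1.3e-18).

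The small ID1 difference against Ctrl depended on the scaling. With total counts it was 0.05 (adjusted p = 0.13), and in the authors' FPKM, which carry no TMM factors, the CRLM1-OE mean was 126 ± 1.95 and the Ctrl mean 124 ± 3.24 (SD, n = 3 per group). It also did not pass without Ctrl replicate 2 (adjusted p = 0.161) or Ctrl replicate 3 (adjusted p = 0.0781). Going from TMM to total counts moved the median log2 fold change of the 12941 genes against Ctrl from -0.04 to 0.10, and relative to that median ID1 lay lower under both. ID2 had 18.6, 18.6 and 17.6 CPM in CRLM1-OE, 19.1, 19.7 and 17 CPM in Ctrl, and 17.8, 17 and 15.5 CPM in Anti, with overlap between all groups. Its log2 difference was -0.03 against Ctrl (95% interval -0.151 to 0.0944, adjusted p = 0.78) and 0.12 against Anti (0.000195 to 0.247, adjusted p = 0.12). Against Anti it passed with total counts (0.18, adjusted p = 0.0114) and with at least 10 counts required in every sample (0.14, adjusted p = 0.0446).

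The controls themselves differed in several members. In Anti against Ctrl, SMAD3 rose by 26.2% (log2 fold change 0.34, SE 0.024, adjusted p = 4.9e-41), SMAD7 by 19.4% (adjusted p = 0.0079) and ID1 by 7.67% (adjusted p = 0.00033). BMP7 fell by 17.9% (adjusted p = 2.3e-05), BMP4 by 15.2% (adjusted p = 0.0014), ID2 by 11.4% (adjusted p = 0.032) and SMAD2 by 7.36% (adjusted p = 0.0015). The 3 higher and 4 lower members stand beside 11.5% and 12.2% of 29714 genes tested, and beside 50.8% passing in either direction among the more abundant genes. None changed 2-fold or more, against 1.06% of all genes tested. With total counts SMAD2, BMP4 and ID2 no longer passed (adjusted p = 0.929, 0.132 and 0.537), and ID2 was also lost without Anti replicate 2 or 3 or Ctrl replicate 1 or 2 (adjusted p = 0.0532, 0.307, 0.142 and 0.278). SMAD4, SMAD6 and ID3 had log2 differences of 0.02, -0.12 and -0.01 and did not pass. With total counts SMAD4 passed as higher (0.12, adjusted p = 0.00648), as did ID3 (0.09, adjusted p = 0.00496), which also passed with limma on log2(FPKM + 0.1) (adjusted p = 0.0189) and on log2(FPKM + 1) (adjusted p = 0.0158). The members then stood at 5 higher and 1 lower. The median was -0.062 over the members and 0.0047 over all genes. Each pair of comparisons shares one group, so BMP4 is given by its levels: 31.1 ± 1.09 CPM in CRLM1-OE, 19.1 ± 0.684 CPM in Ctrl and 16.5 ± 0.58 CPM in Anti (SD, n = 3 per group).

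**Figure D3:**
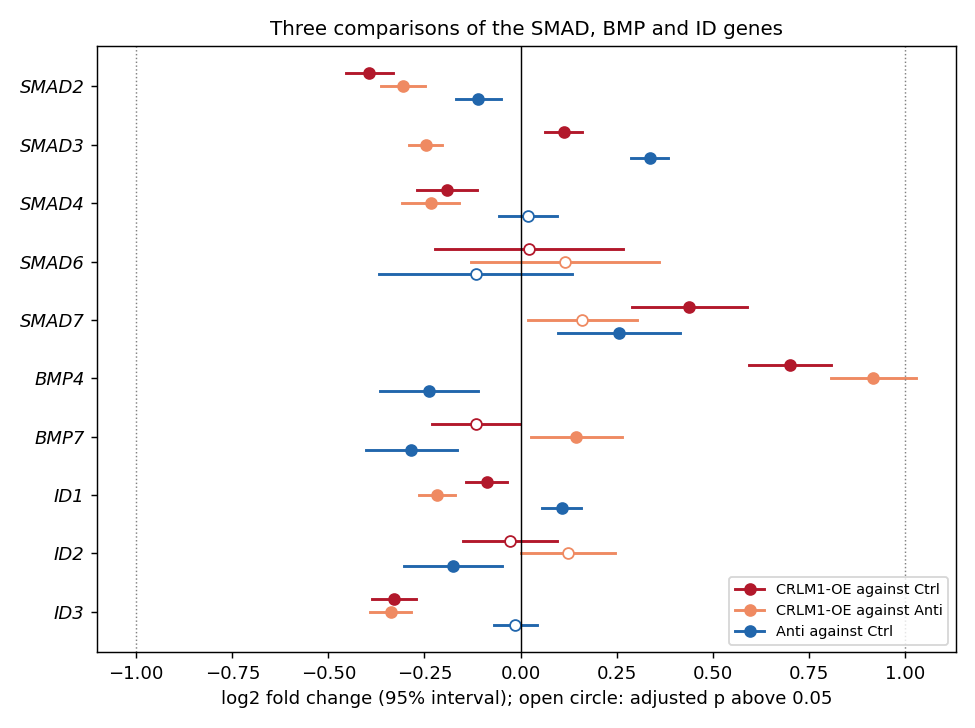
Log2 fold change of each member in the 3 comparisons, with the 95% interval of edgeR's fit as a bar (n = 3 per group). BMP4 lies farthest above 0 in both comparisons of CRLM1-OE, SMAD2, SMAD4, ID1 and ID3 lie below 0 in both under TMM scaling (ID1 at 0.05 against Ctrl with total counts), and SMAD3 changes side with the control.

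A list of 97 entries names other ligands, receptors, antagonists, SMADs, regulators and targets of the pathway, of which 84 genes were in the table. Against Ctrl, 29 of 83 tested were higher, 18 lower and 36 did not pass, beside 15% higher and 16.8% lower of all genes tested and 65.3% passing among genes averaging 50 counts or more. With total counts the numbers were 37 higher and 13 lower. Against Anti, 27 of 82 were higher and 18 lower, beside 17.1%, 18.5% and 72.2%. In Anti against Ctrl 14 of 83 were higher and 8 lower, beside 11.5%, 12.2% and 50.8%, and with total counts 26 and 5. The counts by role are read against the same shares, and none of them was tested against other genes. The median log2 fold change of the list was 0.18 against Ctrl and 0.22 against Anti, where all genes tested had 0.017 and -0.023. Among the 52 list genes averaging 50 counts or more it was 0.13 and 0.032, where all such genes had -0.039 and -0.032.

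Among BMP and GDF ligands, 5 of 12 were higher than in Ctrl and 1 lower. Among ligands averaging 50 counts or more, the largest rises were those of AMH, the anti-Müllerian hormone (log2 fold change 0.93, SE 0.13, adjusted p = 5.6e-11), BMP8B (0.92, SE 0.08, adjusted p = 4e-29) and BMP6 (0.91, SE 0.21, adjusted p = 5.5e-05), and against Anti they were 0.95, 0.83 and 0.57, all past the threshold, BMP6 not without CRLM1-OE replicate 1 (adjusted p = 0.0514). AMH had 4.74, 4.19 and 5.17 CPM in CRLM1-OE, 2.6, 2.65 and 2.16 CPM in Ctrl, and 2.52, 2.26 and 2.56 CPM in Anti. The CRLM1-OE samples lay above all controls. BMP8B has a near-identical copy, BMP8A (0.85 against Ctrl), and reads that match both copies could not map uniquely, so the levels of both are uncertain. BMP2, named with BMP8A after the values were seen, had 41 to 60 counts in CRLM1-OE, 14 to 36 in Ctrl and 22 to 34 in Anti. Its rise against Ctrl was as large as that of AMH but less precise (0.94, SE 0.25, adjusted p = 0.00068). Against Anti BMP2 rose by 0.75 (adjusted p = 0.0055), a call lost without Anti replicate 1 (adjusted p = 0.081) and with limma on log2(FPKM + 0.1) (adjusted p = 0.0661). The lower ligand, GDF15, a stress-induced cytokine outside the naming rule and picked after its values were seen, had 613, 612 and 616 CPM in CRLM1-OE, 813, 846 and 847 CPM in Ctrl, and 955, 953 and 951 CPM in Anti (log2 fold change -0.44 and -0.63).

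TGF-beta and activin ligands gave 1 higher and 2 lower of 8. TGFB1, the main TGF-beta, had 69.7, 71.8 and 67.3 CPM in CRLM1-OE, 86.3, 86.6 and 91.7 CPM in Ctrl, and 67.7, 68.1 and 67.4 CPM in Anti, so that CRLM1-OE and Anti both lay below Ctrl and overlapped each other. It fell against Ctrl (log2 fold change -0.34, SE 0.034, adjusted p = 2.5e-22), with 0.04 against Anti (adjusted p = 0.4), or 0.10 with total counts (adjusted p = 0.00689). INHBB, TGFB2 and the receptor ACVR1C changed 2-fold or more against both controls. They were picked after their values were seen, have few counts, and each came under 2-fold against Ctrl when some single replicates were left out. INHBB, an activin subunit, had 20 to 32 counts in CRLM1-OE, 6 to 15 in Ctrl and 3 to 13 in Anti (log2 fold change 1.15 and 1.52). Against Ctrl it did not pass with DESeq2 (adjusted p = 0.06), without CRLM1-OE replicate 1 (0.99, adjusted p = 0.0552) or without Ctrl replicate 1 (0.79, adjusted p = 0.111), and it ranged from 0.79 to 1.64 over the replicates left out. ACVR1C, a type I receptor, had 50 to 78, 16 to 44 and 26 to 31 counts (1.04 and 1.17), with a range from 0.81 to 1.28 against Ctrl over the replicates left out, and did not pass there with limma on log2(FPKM + 0.1) (adjusted p = 0.0729). TGFB2 had 4 to 19, 16 to 24 and 20 to 34 counts (-1.08 and -1.44), ranging against Ctrl from -1.92 to -0.72 over the replicates left out, and its fall against Ctrl did not pass with DESeq2 (adjusted p = 0.108) or without CRLM1-OE replicate 2 or 3 or Ctrl replicate 1 (adjusted p = 0.0804, 0.194 and 0.0839).

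Of the 18 receptors and co-receptors, 8 were higher and 3 lower than in Ctrl. RGMA, a BMP co-receptor, and BAMBI, a decoy receptor without kinase, rose (log2 fold change 0.84 and 0.75 against Ctrl, 0.74 and 0.57 against Anti). ACVRL1, a type I receptor known from endothelium, fell (-0.68, SE 0.16, adjusted p = 0.00019, and -0.89 against Anti), a call lost against Ctrl with limma on log2(FPKM + 0.1) (adjusted p = 0.0902). BMPR1A, a type I BMP receptor outside the naming rule, also fell against both controls (-0.34 and -0.47, adjusted p = 1e-07 and 6.8e-15). It was picked after its values were seen. TGFBR2, the type II TGF-beta receptor, had 36.9, 36.1 and 36.8 CPM in CRLM1-OE, 29.3, 31.2 and 30.2 CPM in Ctrl, and 31.3, 31 and 31.6 CPM in Anti, and rose against both controls (0.28 and 0.23, adjusted p = 3.1e-08 and 3e-06). Its counts do not show whether the transcripts encode a whole receptor. BMPR1B, a type I BMP receptor, had 0 counts in CRLM1-OE and 7, 0 and 2 in the Ctrl samples. It passed the 2-fold limit against Ctrl, but no fold is given from so few reads.

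Extracellular antagonists gave 4 higher and 0 lower of 12 against Ctrl, and 2 higher and 1 lower of 10 against Anti. CHRD, which encodes the BMP trap chordin, had 11.1, 12.5 and 11.6 CPM in CRLM1-OE, 6.57, 6.53 and 6.65 CPM in Ctrl, and 7.51, 7.75 and 8.25 CPM in Anti. It rose against Ctrl (log2 fold change 0.83, SE 0.089, adjusted p = 1.4e-19) and Anti (0.58, adjusted p = 2.6e-11). NBL1, another BMP-binding protein, rose by 0.43 on the log2 scale against each control. TWSG1, a chordin partner, rose against Ctrl (0.27, adjusted p = 6.7e-05), with 0.09 against Anti (adjusted p = 0.27), or 0.15 with total counts (adjusted p = 0.0299).

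The SMADs of the BMP branch were not higher in CRLM1-OE. SMAD5 had 29.3, 29.1 and 29.9 CPM in CRLM1-OE, 43.1, 39.3 and 37.2 CPM in Ctrl, and 40.8, 43.8 and 43.9 CPM in Anti, and fell against both (log2 fold change -0.44 and -0.54, adjusted p = 1e-19 and 1.6e-31). SMAD1 fell against Anti (-0.66, adjusted p = 2.3e-12) and at the limit against Ctrl (-0.24, adjusted p = 0.049), where the call was lost with RLE factors, total counts and DESeq2 (adjusted p = 0.061, 0.543 and 0.133) and without CRLM1-OE replicate 1 or 3 or Ctrl replicate 1 or 3 (adjusted p = 0.17, 0.132, 0.164 and 0.234). SMAD9, with a difference of -0.05 against Ctrl and -0.10 against Anti, did not pass (adjusted p = 0.85 and 0.65).

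Of 16 intracellular regulators, 5 were higher and 7 lower than in Ctrl. PMEPA1, a TGF-beta-induced inhibitor of receptor-regulated SMADs, rose (log2 fold change 0.72 against Ctrl and 0.73 against Anti). SKI, a SMAD corepressor, rose against Ctrl (0.40) and fell against Anti (-0.11, adjusted p = 0.024), though not with total counts (adjusted p = 0.398) or without CRLM1-OE replicate 2 or 3 or Anti replicate 3 (adjusted p = 0.0748, 0.13 and 0.0711). ZFYVE16, an endosomal SMAD anchor, fell (-0.38 and -0.57), but did not pass against Ctrl with limma on log2(FPKM + 0.1) (adjusted p = 0.122). SMURF2, a ubiquitin ligase that SMAD7 brings to receptors, had 248, 244 and 242 CPM in CRLM1-OE, 283, 287 and 278 CPM in Ctrl, and 307, 316 and 306 CPM in Anti, and fell against both (-0.21 and -0.34, adjusted p = 7e-16 and 1.9e-53). Its direction was thus opposite to that of SMAD7 against Ctrl.

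Among 14 targets and ID partners, 6 were higher and 3 lower than in Ctrl. CTGF, a matricellular protein gene, rose by 0.74 and 0.64 on the log2 scale. MSX2, a homeobox gene and BMP target, rose by 0.56 and 0.69 on that scale, while the ID genes, also BMP targets, were lower or did not pass against Ctrl. MSX1 passed against neither control (adjusted p = 0.088 and 0.15). Under TMM scaling the 3 lower genes were TCF12, CDKN1A and JUNB, at -0.515, -0.214 and -0.129 against Ctrl. Against Anti they were at -0.557, -0.393 and 0.0215, where JUNB did not pass (adjusted p = 0.45). TCF3, among the higher genes, rose by 0.337 and 0.162. These genes stand outside the naming rule and were picked after their values were seen.

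**Figure D4:**
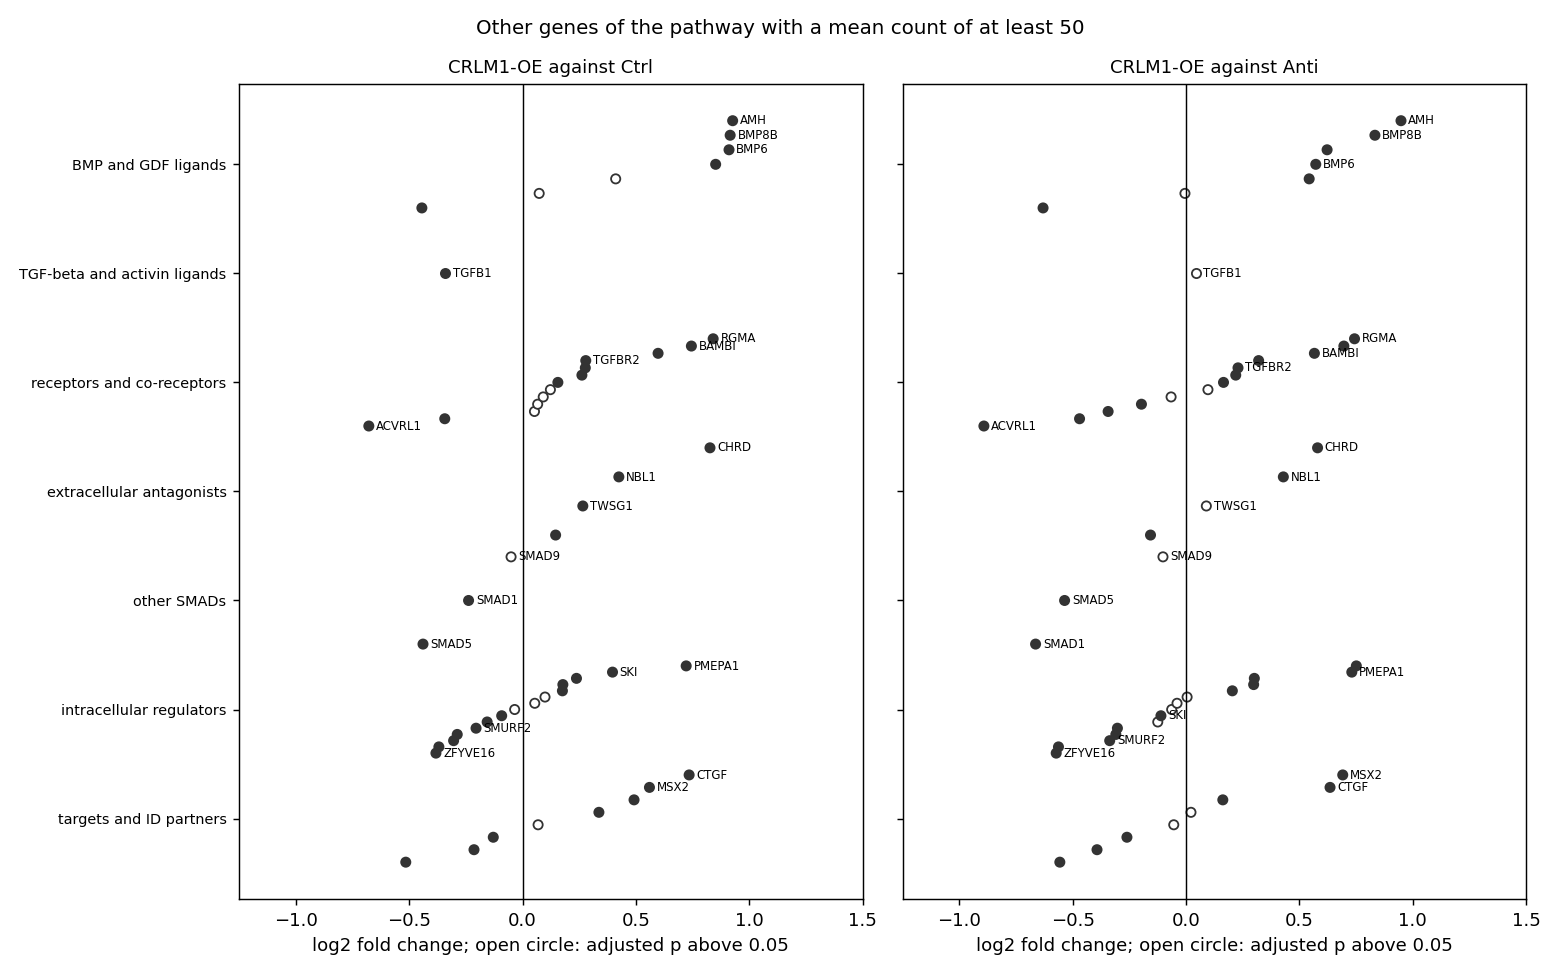
Log2 fold change of the other pathway genes that averaged 50 counts or more, by role, for CRLM1-OE against Ctrl and against Anti (n = 3 per group), with filled circles for an adjusted p of at most 0.05 and names for genes chosen by rule. AMH, BMP8B, RGMA and CHRD lie to the right in both panels, and SMAD5, ACVRL1 and ZFYVE16 to the left.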

How the data were processed

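Reads were trimmed by the authors with the FASTX-Toolkit, short ones were dropped, and TopHat2 aligned the remainder to GRCh38 with the Gencode version 23 annotation. The deposited counts are uniquely mapped reads for each gene, not normalized. They also deposited FPKM values, scaled for exon length and mapped fragments. The counting tool, the use of strand and the limit for an expressed gene are not given in the sources used here. Columns of other samples numbered 0.

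Each comparison used its own 6 samples and edgeR 4.0.16 under R 4.3.3 (TMM, glmQLFit, glmQLFTest, two-sided). All genes with a total of 1 count or more entered the test and the Benjamini-Hochberg adjustment. A gene passed at an adjusted p of at most 0.05. The standard error is the log2 fold change divided by the square root of F. CPM use TMM-scaled library sizes. The test was checked on simulated counts with a fixed dispersion and changes planted in a small share of genes. Because so few genes changed there, that check does not cover how scaling acts when many genes differ. FPKM served for levels and for limma 3.58.1. Alternatives were RLE factors, total counts, 2 filters on low counts, DESeq2 1.42.0, limma on log2(FPKM + 0.1) and log2(FPKM + 1), all 9 samples, a replicate block and leaving out each replicate. Reads carry no molecular identifiers.

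The members and lists were chosen with earlier results of these data known. Named pathway genes are, per role, up to 3 with the largest change against Ctrl that passed and had a mean count of at least 50, plus SMURF2, TGFBR2 and the other SMADs. The alternatives for these were added after the data were seen. Genes like a member were to be sought only for members past 2-fold. A gene of the list of targets is counted but neither drawn nor reported here.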

Additional observations from a re-analysis of the deposited data

How the results depend on the processing

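In CRLM1-OE against Ctrl, 133 of 150 recomputed member values kept their direction and side of the threshold, 5 no longer passed and 12 changed sign. The numbers for CRLM1-OE against Anti were 133, 9 and 1, with 7 newly passing, and for Anti against Ctrl 131, 12 and 6, with 1 newly passing in its own direction (SMAD4) and 3 of the 6 that changed sign passing in the other (ID3 with total counts and both limma fits). BMP4, SMAD2 and ID3 kept their calls against both controls in every alternative run. With total counts, 2 members rather than 4 were lower than Ctrl, 4 rather than 2 were higher than Anti, and in Anti against Ctrl 5 rather than 3 were higher and 1 rather than 4 lower, with 26 pathway genes higher (14 in the TMM fit) and 5 lower (8). Both limma fits gave 2 lower members and 8 lower pathway genes (18 in the TMM fit) in CRLM1-OE against Ctrl, and 2 lower members and 3 lower pathway genes in Anti against Ctrl. Higher members against Anti numbered 4 with at least 10 counts in every sample, 1 with DESeq2, 1 with all 9 samples and 1 to 2 with a replicate left out.

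Against Ctrl, total counts turned BMP7 to 0.0246, ID1 to 0.0533, ID2 to 0.113 and SMAD9 to 0.0905 on the log2 scale. The limma fits with 0.1 and 1 turned ID1 to 0.0264 and 0.0262, ID2 to 0.0905 and 0.0808, and SMAD9 to 0.0428 and 0.0142. In Anti against Ctrl, ID3 became 0.0917 with total counts and 0.0776 and 0.0769 with limma. TMM and total counts differ by a shift of all genes (median -0.0389 and 0.102 against Ctrl, -0.0324 and 0.0267 against Anti, -0.00323 and 0.101 in Anti against Ctrl). With a replicate left out, values that cross 0 ranged against Ctrl from -0.124 to 0.126 (SMAD6), -0.069 to 0.0196 (ID2) and -0.163 to 0.053 (SMAD9), against Anti from -0.0338 to 0.223 (SMAD6) and -0.163 to 0.0116 (SMAD9), and in Anti against Ctrl from -0.0212 to 0.0549 (SMAD4) and -0.0232 to 0.00155 (ID3). None of these genes passed the threshold in the TMM fit, ID1 against Ctrl excepted. The causes were not tested. SMAD6, with 120 to 214 counts, is the member with the fewest reads.

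The labels number replicates from 1 to 3 in each group. Residual correlations ran from -0.101 to 0.086 for same-numbered samples and from -0.153 to 0.186 for others, across 12941 genes. They show no sign of pairing by number, but with 3 replicates per group they cannot settle it, and the labels do not say. With the replicate block, 1 member rather than 2 was higher in CRLM1-OE than in Anti (BMP7, adjusted p = 0.0515).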
